A study of Macaca mulatta with 12 samples.

Results

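A set of 10 trophoblast lineage genes of the rhesus macaque was followed over every array of a study that compared parthenogenetic and biparental embryonic stem (ES) cells. The genes were CDX2, GATA3, GATA2, TFAP2A, ELF5, TEAD4, KRT7, ENDOU, HAND1 and MSX2. They were chosen by name, with earlier results of these data known. Every probe set whose platform annotation gave 1 of these symbols and no other was used. This gave 21 probe sets for all 10 genes, of 52766 probe sets and 14132 named genes on the array. A probe set is the group of oligonucleotides that measures a transcript, and its value here is a log2 expression value, so that a difference of 1 is a 2-fold difference in signal. GATA3, CDX2, ELF5, ENDOU, GATA2, TFAP2A and MSX2 had several probe sets each, while TEAD4, KRT7 and HAND1 had 1.

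The 12 arrays came from 4 cell populations with 3 arrays each. ORMES-9 is a parthenogenetic ES cell line described as homozygous, and its arrays A, B and C were of cells at passages 13, 14 and 16. rPESC-2 is a parthenogenetic ES cell line described as heterozygous, at passages 16, 10 and 16. ORMES-22, at passages 18, 21 and 19, is the biparental line: its embryo was produced by in vitro fertilisation, so it has a paternal as well as a maternal genome. The fibroblasts were skin cells isolated with collagenase from a male macaque 9 years of age, and the labels call them the somatic control. The labels of ORMES-9 contradict each other. Its description and the stated design have it as a homozygous parthenote, but its source field names a fertilised blastocyst, and here it was taken as parthenogenetic. All ES lines are labelled female and all were grown on mitotically inactivated mouse embryonic fibroblasts, with RNA taken from colonies picked as undifferentiated. Sex and culture therefore differed between fibroblasts and every ES line, and each genotype is represented by 1 line. The arrays are labelled biological replicates of a line. The p-values rest on how far cultures or arrays vary within a population, pooled over all 4 populations for each probe set. That pooled spread can differ from the spread of the lines compared. The p-values say nothing of other lines or animals.

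Trophoblast is the first lineage set aside in the mammalian embryo and forms the fetal part of the placenta. In the mouse, TEAD4 acts upstream of CDX2 in the outer cells of the morula, and CDX2, ELF5 and EOMES maintain trophoblast stem cells. GATA2, GATA3, TFAP2A and TFAP2C are transcription factors that human pluripotent cells switch on early when bone morphogenetic protein (BMP) drives them towards trophoblast-like fates. MSX2 is a homeobox transcription factor and a known target of BMP signalling. Several of these genes are not specific to trophoblast: TFAP2A, GATA2, GATA3 and MSX2 also act in surface ectoderm, neural crest or amnion, HAND1 acts in lateral mesoderm, and KRT7 is a keratin of many simple epithelia.

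The ES arrays carried most of the measured transcripts listed as markers of ES cells. Of 11 measured pluripotency genes of 14 listed, 8 were higher in the ES lines than in the fibroblasts by limma at an adjusted p under 0.05 and at least 2-fold, beside 14.5% of all genes. POU5F1, the core pluripotency factor, averaged 12.97 in ES lines and 4.90 in fibroblasts. NANOG, ZFP42 and CDH1 were not among the 8. The probe set of NANOG was lower in ES lines at 8.20 than in fibroblasts at 9.53. ZFP42 averaged 4.43 to 4.53 in the ES lines and 4.38 in fibroblasts. CDH1 averaged 4.64 to 4.87 in the ES lines and 4.25 in fibroblasts. Of 10 measured fibroblast genes of 12 listed, 8 were lower in ES lines, beside 12.9% of all genes. DCN and THY1 were not. DCN averaged 7.02 to 7.27 in the ES lines and 6.69 in fibroblasts, and THY1 averaged 9.13 to 10.06 and 9.42. The list's mean level was 6.71 to 7.89 over the ES arrays and 11.06 to 11.08 over the fibroblast arrays. Array medians lay between 5.012 and 5.098. Within a population the arrays correlated at 0.9948 to 0.9956 in ORMES-9, 0.9937 to 0.9950 in rPESC-2, 0.9844 to 0.9928 in ORMES-22 and 0.9957 to 0.9968 in fibroblasts, and the low end in ORMES-22 was set by its array A, which stood apart. The MSX2 differences from ORMES-22 are given with and without it. Signal near background was judged from 42 bacterial control probe sets, whose 90th percentile was 4.26.

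The first group of genes holds the factors that set up and maintain mouse trophoblast stem cells. CDX2 was low in every population. Its brighter probe set read 5.09, 5.02 and 5.09 in ORMES-9 arrays A, B and C, 5.00, 4.94 and 4.95 in rPESC-2, 5.02, 5.26 and 5.04 in ORMES-22, and 4.61, 4.78 and 4.73 in fibroblasts. All 9 ES arrays lay above all 3 fibroblast arrays. The difference was 0.34 (95% interval 0.19 to 0.48; limma adjusted p = 8.1e-04), below the 2-fold minimum. The other CDX2 probe set read between 4.56 and 4.79 on the ES arrays, against 4.59 to 4.61 on the fibroblast arrays, and its groups overlapped.

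ELF5, an ETS-family factor of trophoblast stem cells, was not above the control level on any of the 12 arrays. Its brighter probe set read 3.94, 4.11 and 3.99 in ORMES-9, 4.09, 4.00 and 4.09 in rPESC-2, 3.99, 4.05 and 4.08 in ORMES-22, and 3.85, 3.98 and 3.96 in fibroblasts. Its second probe set reached at most 3.79 on the ES arrays. These probe sets give no measured level of ELF5, and a low level below background would look the same.

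TEAD4, the DNA-binding partner of the Hippo pathway co-activator YAP1, was well above background in all populations. It read 9.47, 9.55 and 9.83 in ORMES-9, 9.26, 10.02 and 9.70 in rPESC-2, 9.86, 10.31 and 10.85 in ORMES-22, and 9.37, 9.23 and 9.27 in fibroblasts. The ORMES-9 arrays all lay below the ORMES-22 arrays, by a narrow margin, while rPESC-2 and ORMES-22 overlapped. The difference from ORMES-22 was −0.72 (95% interval −1.23 to −0.22) in ORMES-9 and −0.68 (−1.18 to −0.17) in rPESC-2. Neither passed the test (limma adjusted p = 0.099 and 0.12). Over the alternatives described under processing, the differences reached −0.97 and −0.92, still under 2-fold. The lowest limma adjusted p among them was 0.0098 in ORMES-9 and 0.011 in rPESC-2.

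**Figure D1:**
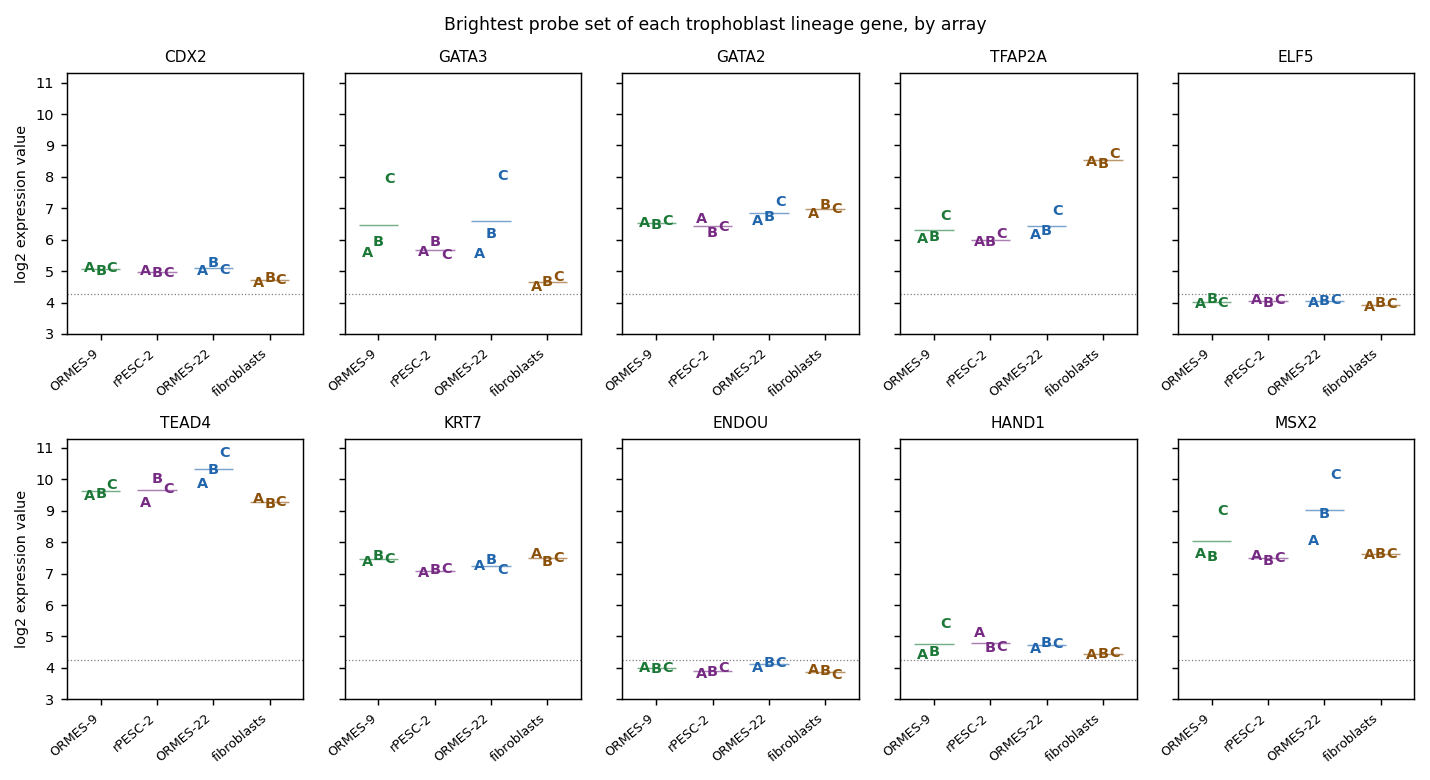
Log2 expression value (y axis) of the brightest probe set of each trophoblast lineage gene in ORMES-9, rPESC-2, ORMES-22 and fibroblasts (x axis), with a letter for each replicate array, a horizontal line for the mean of 3 arrays and a dotted line at the 90th percentile of control probe sets, 4.26. Array C lies above arrays A and B in ORMES-9 and ORMES-22 for GATA3 and MSX2, TFAP2A is highest in fibroblasts, and ELF5 and ENDOU stay below the dotted line.

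GATA3, GATA2 and TFAP2A are the early transcription factors of BMP-induced trophoblast-like cells. GATA3 was uneven among arrays of the same line. Its brighter probe set read 5.59, 5.92 and 7.94 in ORMES-9, 5.62, 5.92 and 5.52 in rPESC-2, 5.56, 6.19 and 8.02 in ORMES-22, and 4.51, 4.67 and 4.82 in fibroblasts. Array C of ORMES-9 and array C of ORMES-22 were far above the other 7 ES arrays, which lay between 5.52 and 6.19. The second GATA3 probe set had the same high arrays, at 5.76 in ORMES-9 C and 5.63 in ORMES-22 C, with 4.65 to 5.11 on the other ES arrays and 4.25 to 4.43 on the fibroblast arrays.

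GATA2 was measured by 3 probe sets that differed in their range. The probe set MmuSTS.4819.1.S1_at read 4.36, 4.39 and 5.49 in ORMES-9, 4.58, 4.36 and 4.34 in rPESC-2, 4.66, 4.64 and 6.55 in ORMES-22, and 8.09, 7.81 and 7.77 in fibroblasts. Fibroblasts were above every ES array, and within ORMES-9 and ORMES-22 array C was again the highest. Over the same 12 arrays the probe set MmugDNA.21422.1.S1_at spanned only 0.98, with means ± SD of 6.53 ± 0.06 in ORMES-9, 6.44 ± 0.22 in rPESC-2, 6.84 ± 0.32 in ORMES-22 and 6.97 ± 0.14 in fibroblasts (n = 3 each). The third, MmugDNA.21422.1.S1_s_at, lay between 5.48 and 6.57 on the ES arrays and between 6.62 and 6.79 on the fibroblast arrays.

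TFAP2A was highest in fibroblasts. The probe set MmugDNA.3515.1.S1_at read 4.71, 4.29 and 5.99 in ORMES-9, 4.57, 4.17 and 4.50 in rPESC-2, 4.69, 4.71 and 6.48 in ORMES-22, and 9.47, 9.20 and 9.48 in fibroblasts. The C arrays of ORMES-9 and ORMES-22 were the only ES arrays above 4.71. The probe set MmuSTS.3863.1.S1_at, brighter over all arrays, read 6.03, 6.10 and 6.77 in ORMES-9, 5.93, 5.92 and 6.17 in rPESC-2, 6.15, 6.29 and 6.90 in ORMES-22, and 8.49, 8.40 and 8.74 in fibroblasts. It ranked the arrays in a like way over a narrower range, whereas the third TFAP2A probe set varied by only 0.40 over the 12 arrays.

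MSX2 had the widest spread of the 10 genes among ES arrays. Its brightest probe set, MmuSTS.1547.1.S1_s_at, read 7.61, 7.53 and 9.0 in ORMES-9, 7.55, 7.39 and 7.51 in rPESC-2, 8.05, 8.89 and 10.15 in ORMES-22, and 7.59, 7.63 and 7.63 in fibroblasts. The rPESC-2 arrays lay just below the fibroblast arrays, all 3 ORMES-22 arrays lay above them, and in ORMES-9 array C alone was raised. The probe set MmugDNA.5017.1.S1_at went further: it read 3.76, 3.81 and 6.46 in ORMES-9, 4.05, 4.07 and 3.73 in rPESC-2, 3.80, 6.34 and 8.83 in ORMES-22, and 4.05, 4.22 and 4.32 in fibroblasts. Only 4 of the 12 arrays exceeded the control level there, namely ORMES-9 C, ORMES-22 B, ORMES-22 C and, narrowly, fibroblast array C. Its companion MmugDNA.5017.1.S1_s_at and the probe set MmugDNA.11919.1.S1_at also had their 3 highest values on the same ES arrays, with 7.42 and 7.33 in ORMES-22 C.

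HAND1, a basic helix-loop-helix factor needed for mouse giant cells and for heart and extraembryonic mesoderm, was low throughout. It read 4.40, 4.50 and 5.40 in ORMES-9, 5.10, 4.64 and 4.67 in rPESC-2, 4.60, 4.80 and 4.76 in ORMES-22, and 4.41, 4.44 and 4.46 in fibroblasts. The highest values were ORMES-9 C and rPESC-2 A, and ORMES-22 C was not raised.

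KRT7, a keratin used as a marker of trophoblast in human placenta, was above background and even among arrays. It read 7.36, 7.56 and 7.47 in ORMES-9, 7.03, 7.12 and 7.14 in rPESC-2, 7.24, 7.42 and 7.11 in ORMES-22, and 7.61, 7.36 and 7.51 in fibroblasts. The ORMES-9 arrays lay above the rPESC-2 arrays, and fibroblasts overlapped ORMES-9. ENDOU, an endoribonuclease first described as a placental protein, was below the control level on all 12 arrays with both probe sets, at 3.77 to 4.17 for one and 3.45 to 3.86 for the other.

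**Figure D2:**
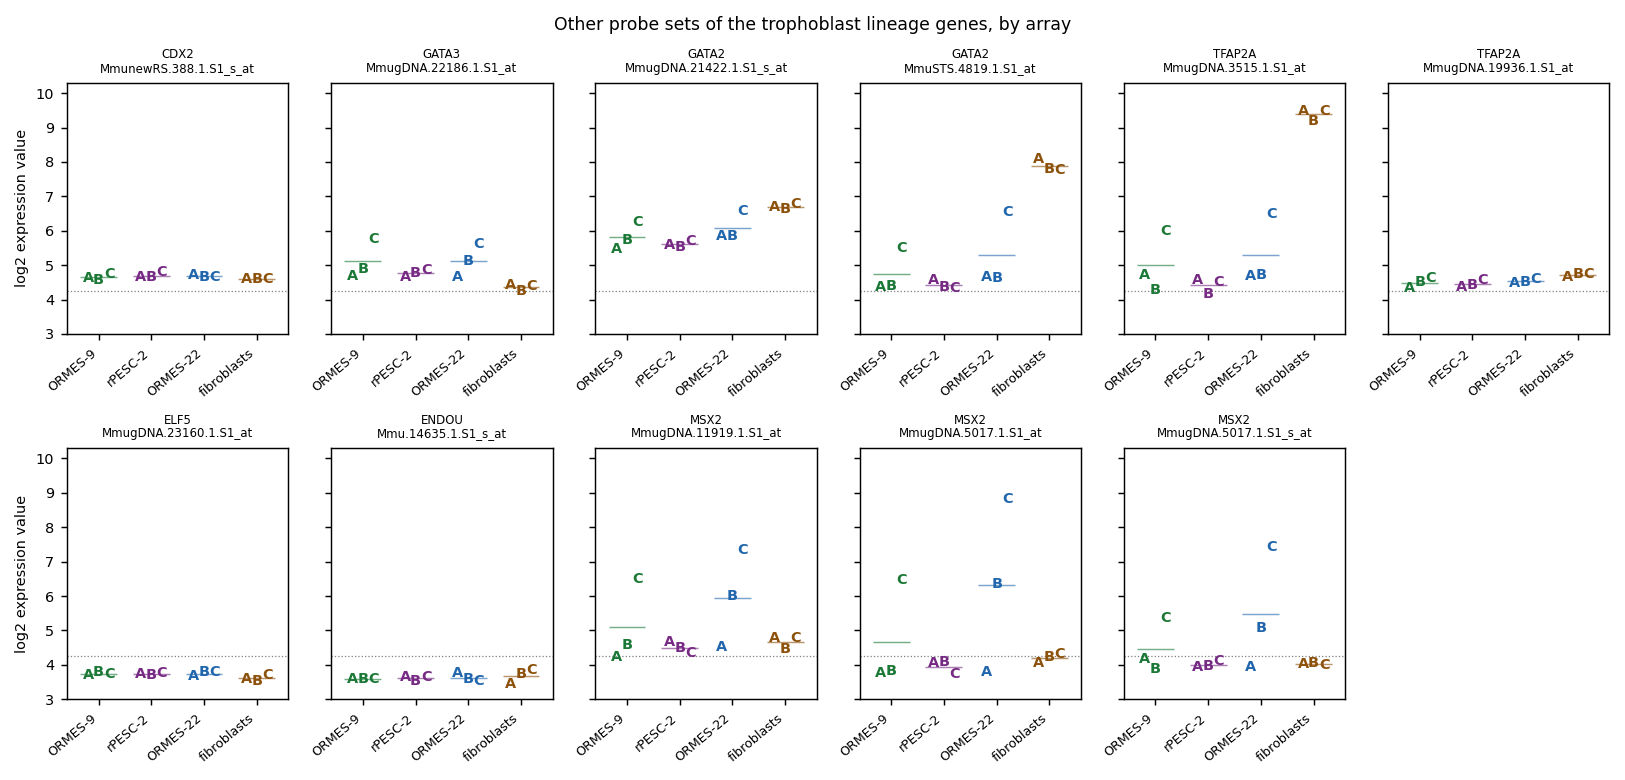
Log2 expression value (y axis) of the other 11 probe sets of the same genes in the 4 populations (x axis), with replicate letters, group means of 3 arrays as lines and the control level of 4.26 dotted. The further probe sets of MSX2 and GATA3 show the raised C arrays of ORMES-9 and ORMES-22, while the third TFAP2A probe set and the second probe sets of CDX2, ELF5 and ENDOU are flat.

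The series design asks how parthenogenetic lines differ from the biparental line and from each other. A probe set was called when limma gave an adjusted p under 0.05 over all 52766 probe sets and the difference was at least 2-fold. None of the 21 probe sets was called in any of these comparisons. In rPESC-2 against ORMES-22, 0 of 21 were called, beside 1.24% of all probe sets, and 8 of 21 had an unadjusted p under 0.05, beside 20.9% of all. In ORMES-9 against ORMES-22, 0 of 21 were called, beside 1.57% of all probe sets, and 1 had an unadjusted p under 0.05, beside 18.5% of all. In ORMES-9 against rPESC-2, 0 of 21 were called, beside 1.23% of all, and again 1 had an unadjusted p under 0.05, beside 15.9%. At a call rate near 1 in 100, no call among 21 probe sets says little about these genes.

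Most differences from ORMES-22 were negative. In rPESC-2, 18 of the 21 differences were below 0, with a median of −0.41 beside −0.02 over all probe sets. In ORMES-9 against ORMES-22, 19 of 21 were negative, with a median of −0.13 beside −0.01. These comparisons share the ORMES-22 arrays, and probe sets of 1 gene are not independent. Between ORMES-9 and rPESC-2, 5 of 21 were negative, and the median was 0.22 beside 0.01 over all probe sets. The groups did not overlap for 5 of 21 probe sets in rPESC-2 against ORMES-22, all lower in rPESC-2 (1 each of CDX2, TFAP2A and MSX2 and a pair of GATA2), beside 20.3% of all probe sets. They did not overlap for 2 of 21 in ORMES-9 against ORMES-22 (TEAD4 and 1 of GATA2, both lower in ORMES-9), beside 20.3%, and for 2 of 21 in ORMES-9 against rPESC-2 (KRT7 and 1 of CDX2, both higher in ORMES-9), beside 22.5%. These shares are near or below those of all probe sets.

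MSX2 gave the largest differences. Its brightest probe set averaged 7.48 ± 0.08 in rPESC-2 and 9.03 ± 1.06 in ORMES-22 (SD, n = 3 each), a difference of −1.55 (SE 0.46, 95% interval −2.55 to −0.55; unadjusted p = 0.0056 and adjusted p = 0.08 in limma). ORMES-9 averaged 8.04 ± 0.83, and its difference from ORMES-22 was −0.99 (95% interval −1.99 to 0.01; limma adjusted p = 0.28). These results depended on single arrays of ORMES-22. Without array C, the highest of its line, the brightest probe set differed by −0.99 (limma adjusted p = 0.19) in rPESC-2, and MmugDNA.5017.1.S1_at by −1.12 (adjusted p = 0.51) in place of −2.37. Without array A, which stood apart and was the lowest of its line for MSX2, more probe sets were called. All 4 MSX2 probe sets were then lower in rPESC-2, by differences of −2.04 to −3.64 (limma adjusted p = 0.0053 to 0.02), beside 1493 calls among all 52766 probe sets. In ORMES-9, 2 of them were called, with −1.48 and −2.91 (limma adjusted p = 0.035 and 0.029), beside 1284 calls. With MmugDNA.5017.1.S1_at and MmugDNA.5017.1.S1_s_at no rPESC-2 array exceeded the control level, so those differences are measured from background. With array C of ORMES-9 left out, 1 MSX2 probe set passed for rPESC-2 against ORMES-22, at the same −1.55 (limma adjusted p = 0.05 after rounding). With the replicate letter as a block it was called too (adjusted p = 0.046). ORMES-22 also differed in its fibroblast marker list. The list's median difference was −0.52 in rPESC-2 and −0.70 in ORMES-9 against ORMES-22, beside −0.03 and −0.01 over all genes. TWIST1 (−1.80 and −2.67) was called lower in both lines and LOX (−2.32) in rPESC-2. The LOX call was lost without array B of rPESC-2 or of ORMES-22. It was also lost without both C arrays of ORMES-22 and ORMES-9 (−1.92, limma adjusted p = 0.058). Of 11 measured pluripotency genes, GDF3 was called higher in both (1.23 and 1.29) and PRDM14 in ORMES-9 (1.56). The shares of all genes called were 1.69% in rPESC-2 and 2.29% in ORMES-9 against ORMES-22. The list's median difference was 0.23 in rPESC-2 and 0.14 in ORMES-9, beside −0.03 and −0.01 over all genes. PRDM14 averaged 8.82 in both rPESC-2 and ORMES-22. POU5F1 and NANOG were slightly lower in both parthenogenetic lines than in ORMES-22 and were not called. The GDF3 call was lost in rPESC-2 without array B of rPESC-2 (1.19, limma adjusted p = 0.056) or array C of ORMES-22 (0.95, under 2-fold), and in both lines without both C arrays (0.95 in rPESC-2 and 0.99 in ORMES-9). The PRDM14 call was lost without array A (1.41, limma adjusted p = 0.063) or B (1.52, adjusted p = 0.053) of ORMES-9. The part of these lists in the MSX2 difference was not tested.

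The wide spread of GATA3 left its differences loosely bounded. GATA3 averaged 6.48 ± 1.27 in ORMES-9, 5.69 ± 0.21 in rPESC-2 and 6.59 ± 1.28 in ORMES-22 (SD, n = 3 each). The difference of rPESC-2 from ORMES-22 was −0.90 with a 95% interval of −2.25 to 0.45, and that of ORMES-9 was −0.11 with an interval of −1.46 to 1.24. These intervals include differences of more than 2-fold in the negative direction and, for ORMES-9, in the positive direction. For CDX2, by contrast, the brighter probe set's interval was −0.32 to 0.03 in rPESC-2 and −0.22 to 0.14 in ORMES-9 against ORMES-22, within 2-fold on both sides. CDX2 was low in every population, and array values compress differences near background, so these intervals bound differences in signal only. KRT7 was 0.36 higher in ORMES-9 than in rPESC-2 (95% interval 0.15 to 0.57), a 1.28-fold difference that missed the threshold (limma adjusted p = 0.055).

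**Figure D3:**
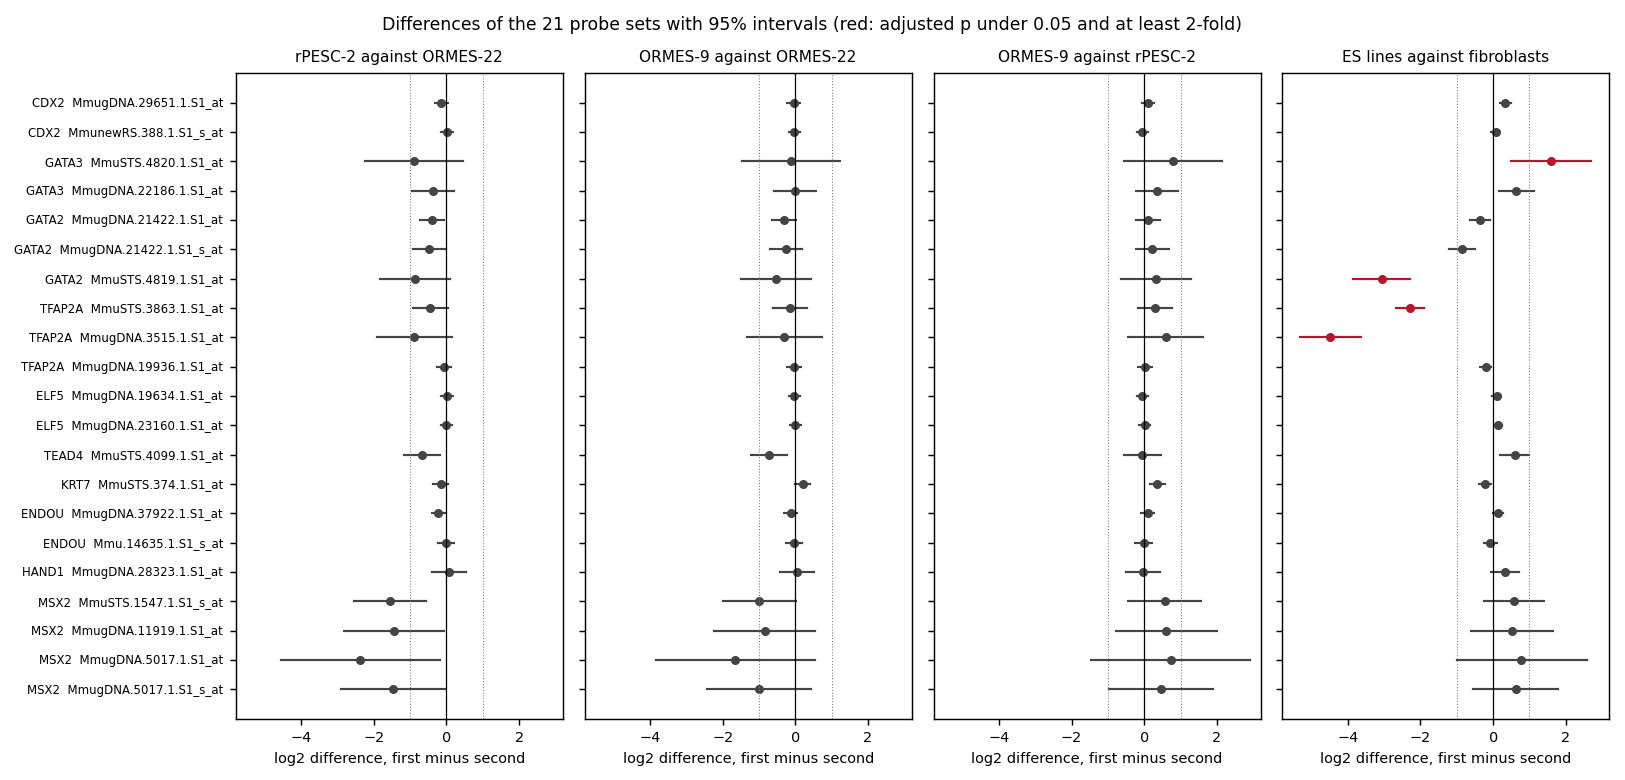
Log2 differences (x axis; first group minus second) of the 21 probe sets (y axis) in the 4 comparisons, with points for the limma estimates, bars for 95% intervals and red for those called. No point is red between ES lines, the intervals of MSX2 and GATA3 are wide, and 4 points are red in ES lines against fibroblasts.

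GATA3, MSX2, TFAP2A and GATA2 varied widely among arrays of the same line. The pooled SD of the ES arrays around their line means was 1.05 for the brighter GATA3 probe set, above 99.9% of all probe sets, against a median of 0.13 over all probe sets. For MSX2 it was 0.78 to 1.71 over its 4 probe sets, and the largest of these exceeded nearly all probe sets on the array. It was 0.79 for TFAP2A MmugDNA.3515.1.S1_at and 0.74 for GATA2 MmuSTS.4819.1.S1_at. For other probe sets of these genes it was smaller, at 0.11 for TFAP2A MmugDNA.19936.1.S1_at and 0.23 for GATA2 MmugDNA.21422.1.S1_at. CDX2, ELF5, ENDOU and KRT7 had pooled SDs of 0.04 to 0.11, below that median.

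Array C of ORMES-9 and array C of ORMES-22 were the high arrays for these 4 genes, though not with every probe set of GATA2 and TFAP2A. The brightest GATA2 probe set was above the rest of its line by 0.08 in ORMES-9 C and 0.54 in ORMES-22 C. The third TFAP2A probe set was above by 0.20 and 0.09. Set against the mean of the other 2 arrays of its line, ORMES-9 C had 7 of 21 probe sets at least 2-fold above, beside 0.161% of all probe sets. ORMES-22 C had 7 of 21 at least 2-fold above, beside 0.587%. In both arrays the 7 probe sets belonged to GATA3, GATA2, TFAP2A and MSX2, and all 4 of MSX2 were among them. Probe sets of 1 gene are not independent. With the brightest probe set of each gene alone, 2 of 10 genes (GATA3 and MSX2) were at least 2-fold above in each array. Over all genes that share was 0.234% in ORMES-9 C and 0.750% in ORMES-22 C. On the other ES arrays 0 of 21 were 2-fold above: ORMES-9 A (0.155% of all probe sets), ORMES-9 B (0.0171%), rPESC-2 A (0.135%), rPESC-2 B (0.104%), rPESC-2 C (0.0152%), ORMES-22 A (1.41%) and ORMES-22 B (0.224%). These are single arrays with no replicate, and no test was made of them. The 10 genes were also chosen with earlier results of these data known, so these counts are descriptive only. At least 2-fold below the other arrays of their line were 3 probe sets in ORMES-9 A, 2 in ORMES-9 B, 5 in ORMES-22 A and 0 in ORMES-22 B. For all 4 MSX2 probe sets ORMES-22 A was below ORMES-22 B, with MmugDNA.5017.1.S1_at at 3.80 in A and 6.34 in B.

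The sizes were close in the 2 lines for some genes and not for others. GATA3 was above the other 2 arrays by 2.18 (4.54-fold) in ORMES-9 C and by 2.15 (4.44-fold) in ORMES-22 C. MSX2 was above by 1.43 in ORMES-9 C and 1.68 in ORMES-22 C with its brightest probe set. TFAP2A MmugDNA.3515.1.S1_at was above by 1.49 in ORMES-9 C and 1.78 in ORMES-22 C, and GATA2 MmuSTS.4819.1.S1_at by 1.11 and 1.89 in the same arrays. HAND1 was above by 0.94 in ORMES-9 C and by 0.06 in ORMES-22 C, and TEAD4 by 0.32 and 0.77. CDX2, ELF5, ENDOU and KRT7 moved by at most 0.23 in either direction on these arrays. ORMES-9 C had the highest passage of its line, 16 beside 13 and 14, while ORMES-22 C, at 19, lay between A at 18 and B at 21. Arrays A and C of rPESC-2, at passage 16, had 0 of the 21 probe sets raised, and the part of passage was not tested.

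**Figure D4:**
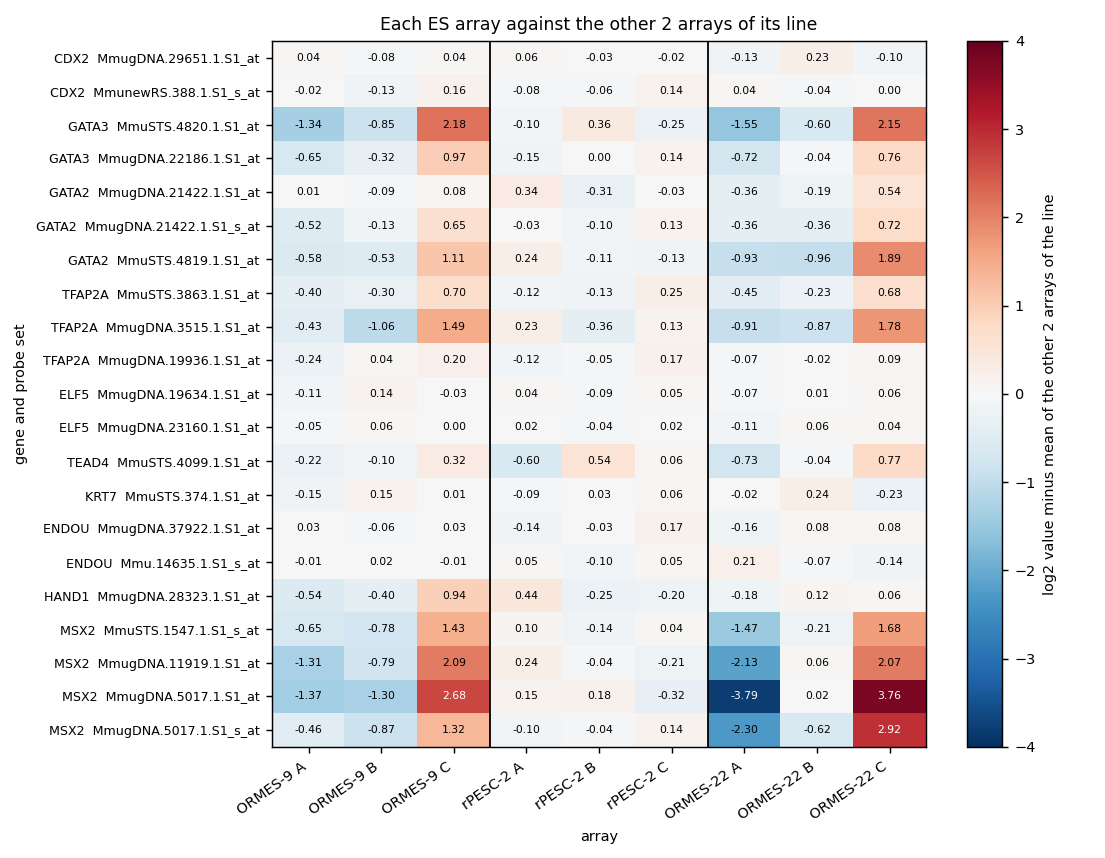
Log2 value of each of the 21 probe sets (rows) on each of the 9 ES arrays (columns) minus the mean of the other 2 arrays of the same line, on a colour scale. Array C of ORMES-9 and array C of ORMES-22 are high in the rows of GATA3 and MSX2 and in some rows of GATA2 and TFAP2A. In each, 7 of 21 probe sets are at least 2-fold above, and no rPESC-2 array has a probe set 2-fold above.

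Other genes were raised on the same arrays. Among 12993 named genes without provisional symbols, 29 were at least 2-fold above the rest of the line in ORMES-9 C and 102 in ORMES-22 C. The arrays shared 14 of these, which is 48.3% of the ORMES-9 C genes and 13.7% of the ORMES-22 C genes. The shared genes were ANXA1, BDNF, BMP2, EDN1, F3, GATA3, KLF5, MSX1, MSX2, NPPB, PTCHD1, RBM12B, SCD5 and SOX17. rPESC-2 A shared 15 genes with ORMES-22 C, 50% of its 30 genes and 14.7% of the 102, and none of these was a trophoblast lineage gene listed here. ORMES-22 C thus shared a like number of genes with an array of another letter, and both overlaps include ORMES-22 C. ORMES-9 C and rPESC-2 A shared 5 genes. The immediate early genes FOS, EGR2 and EGR4 were also raised in ORMES-9 C. With PYROXD1 they were shared with rPESC-2 C and ORMES-22 B. On rPESC-2 C and ORMES-22 B no trophoblast lineage probe set was at least 2-fold above the rest of its line. For ORMES-22 B, however, the rest of the line includes array C. MSX2 MmugDNA.5017.1.S1_at read 3.80, 6.34 and 8.83 in ORMES-22 arrays A, B and C.

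KLF5, a Krüppel-like factor active in early mouse trophectoderm, read 6.05, 6.25 and 7.45 in ORMES-9, 5.85, 5.60 and 5.14 in rPESC-2, 4.61, 6.41 and 7.60 in ORMES-22, and 8.72, 8.33 and 8.56 in fibroblasts. MSX1, the paralogue of MSX2, read 6.34, 6.53 and 7.46 in ORMES-9, 6.61, 6.44 and 6.30 in rPESC-2, 6.36, 6.64 and 7.59 in ORMES-22, and 10.96, 10.94 and 10.69 in fibroblasts. Both genes are among those shared by the C arrays. That array C was the highest for them in both lines largely follows from that choice. KLF5 was low in ORMES-22 A as well. Of 22 measured other trophoblast transcription factors, KLF5 and MSX1 were at least 2-fold above in ORMES-9 C, beside 0.234% of all genes, and these and TFAP2C in ORMES-22 C, beside 0.750%. The list's median deviation was 0.06 in ORMES-9 C and 0.10 in ORMES-22 C, and 0 of 23 keratins and trophoblast products were 2-fold above in either array.

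Of 8 genes listed as BMP targets, 7 were measured. At least 2-fold above the rest of the line were 0 of the 7 in ORMES-9 C, beside 0.234% of all genes, and 1 in ORMES-22 C (ID3), beside 0.750%. Their median deviation from the rest of the line was 0.43 in ORMES-9 C and 0.59 in ORMES-22 C, against −0.81 in ORMES-22 A. ID4, an inhibitor of basic helix-loop-helix factors, read 7.61, 7.85 and 8.58 in ORMES-9, 7.86, 7.64 and 8.05 in rPESC-2, and 8.43, 9.25 and 9.43 in ORMES-22. BMP4, the ligand used to drive ES cells towards trophoblast-like fates, read 8.69, 9.50 and 9.72 in ORMES-9, 8.87, 8.52 and 8.73 in rPESC-2, and 9.15, 9.98 and 10.54 in ORMES-22. The pluripotency list had a median deviation of −0.03 in ORMES-9 C and −0.27 in ORMES-22 C, with POU5F1 between 12.62 and 13.24 on all 9 ES arrays. The fibroblast list, which would also record other mesenchymal cells, had median deviations of 0.21 in ORMES-9 C and 0.01 in ORMES-22 C. The part of cell composition in these values was not tested, and in bulk RNA more cells of a type and more RNA per cell cannot be told apart.

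**Figure D5:**
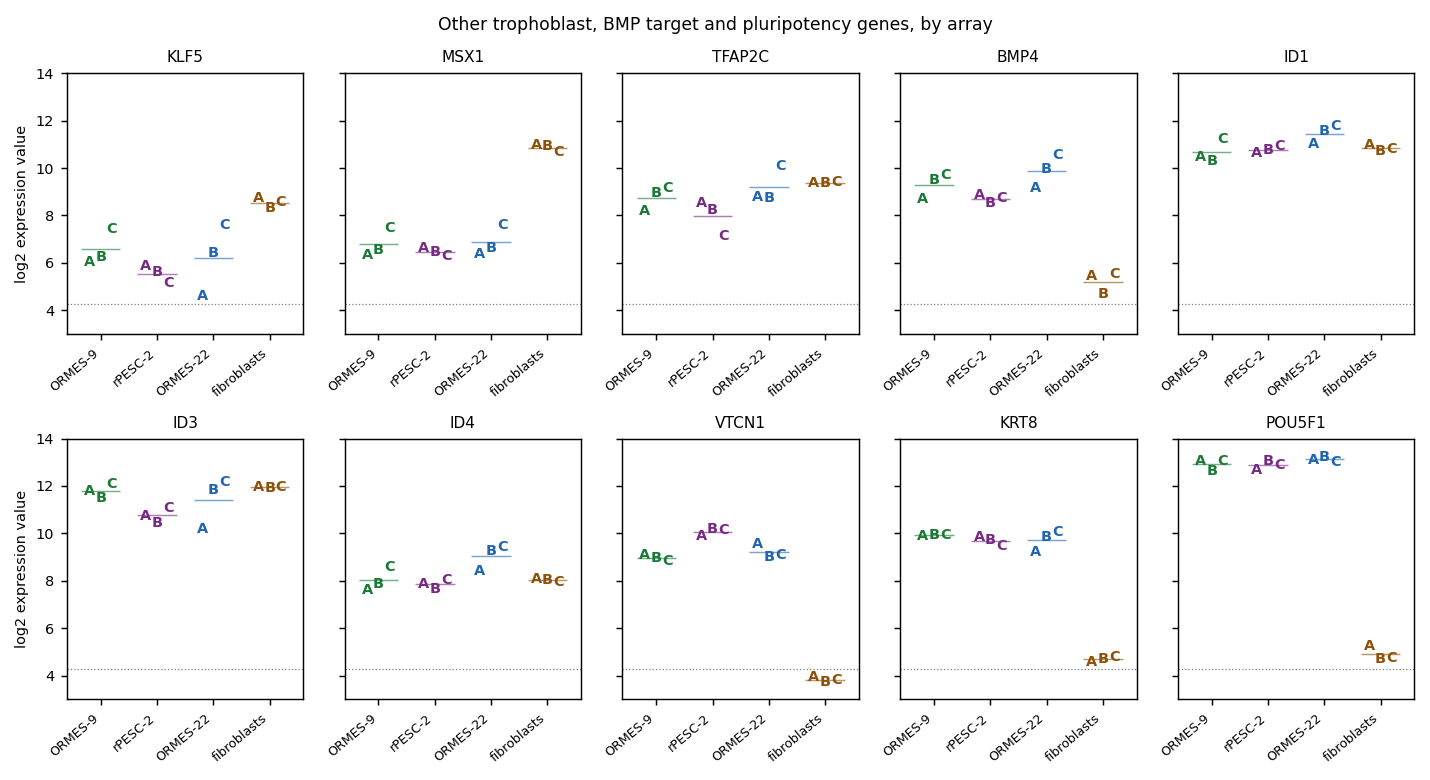
Log2 expression value (y axis) of other trophoblast, BMP target and pluripotency genes in the 4 populations (x axis), with replicate letters and group means of 3 arrays as lines and the control level of 4.26 dotted; the genes drawn were picked after their values were seen. KLF5, MSX1 and ID4 are highest on array C in ORMES-9 and ORMES-22, and POU5F1 lies between 12.62 and 13.24 on all ES arrays.

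Against the fibroblasts the trophoblast lineage genes divided by gene. In the mean of the 3 ES lines against fibroblasts, 1 of 21 probe sets was called higher, beside 8.79% of all probe sets, and 3 of 21 were called lower, beside 10.5% of all. These shares are close to those of the whole array. The probe set called higher was the brighter one of GATA3, which averaged 6.25 in ES lines and 4.67 in fibroblasts, a difference of 1.59 (SE 0.50; limma adjusted p = 0.017). Its call was lost without fibroblast array A (1.51, adjusted p = 0.065) or B (1.59, adjusted p = 0.053), and rPESC-2 alone gave 1.02 (adjusted p = 0.19). It held without array C of ORMES-9 (1.34), without array C of ORMES-22 (1.35) and without both (1.11; limma adjusted p = 9.3e-05).

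TFAP2A and GATA2 were lower in ES lines. TFAP2A MmugDNA.3515.1.S1_at averaged 4.90 in ES lines and 9.39 in fibroblasts, a difference of −4.49 (SE 0.38) or 22.4-fold (limma adjusted p = 6.2e-07). TFAP2A MmuSTS.3863.1.S1_at gave −2.29 (SE 0.18, adjusted p = 2.2e-07), and GATA2 MmuSTS.4819.1.S1_at gave −3.07 (SE 0.36), 8.41-fold (adjusted p = 1.1e-05). The third TFAP2A probe set, MmugDNA.19936.1.S1_at, gave −0.21, and the other GATA2 probe sets gave −0.85 and −0.36, all under 2-fold and not called, so the size for both genes depended on the probe set. The 3 calls held with each array left out in turn and with each ES line alone.

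For the other genes the difference from fibroblasts was under 2-fold. TEAD4 was 0.59 higher in ES lines (limma adjusted p = 0.018) and KRT7 was 0.22 lower, at 7.27 in ES lines and 7.49 in fibroblasts (adjusted p = 0.029). MSX2 averaged 8.18 in ES lines and 7.61 in fibroblasts with its brightest probe set, a difference of 0.57 that did not pass (limma adjusted p = 0.21). HAND1 averaged 4.76 in ES lines and 4.44 in fibroblasts (adjusted p = 0.13). ORMES-22 alone gave called differences for MSX2 (1.42, adjusted p = 0.02) and TEAD4 (1.05, adjusted p = 0.0021).

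The wider set of trophoblast genes, with 1 probe set per gene, gave few calls between ES lines. Over all 14132 genes the share called was 1.69% in rPESC-2 against ORMES-22, 2.29% in ORMES-9 against ORMES-22 and 1.63% in ORMES-9 against rPESC-2. Of 24 other trophoblast transcription factors, 22 were measured, and 1 was called: ETS2, which averaged 11.32 ± 0.15 in ORMES-9 and 10.11 ± 0.24 in rPESC-2 (SD, n = 3 each), a difference of 1.22 (SE 0.17, limma adjusted p = 0.0011). The list's median difference was −0.14 in rPESC-2 against ORMES-22, 0.03 in ORMES-9 against ORMES-22 and 0.17 in ORMES-9 against rPESC-2, beside −0.03, −0.01 and 0.02 over all genes. Against fibroblasts 4 of the 22 were higher and 9 lower in ES lines, beside 14.5% higher and 12.9% lower of all genes. Higher were EOMES (3.49), ETS2 (1.89), ARID3A (1.38) and OVOL1 (1.14), and the largest decreases were MSX1 (−4.17), TBX3 (−2.83), KLF6 (−2.48), and NR2F2 and KLF5 (−2.43 each). EOMES, a T-box factor of mouse trophoblast stem cells and of mesendoderm, averaged 8.41 ± 0.49 in ORMES-9, 8.60 ± 0.09 in rPESC-2, 7.46 ± 0.77 in ORMES-22 and 4.67 ± 0.13 in fibroblasts. GCM1 and DLX3, factors of differentiated trophoblast, had line means of 3.67 to 3.85 in ES lines and 3.62 in fibroblasts, below the control level.

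Of 32 keratins and trophoblast products, 23 were measured. KRT19 was higher in ORMES-9 than in ORMES-22 (1.48, SE 0.28, limma adjusted p = 0.0071), where array A of ORMES-22 read 10.41 and arrays B and C read 9.0 and 9.19, and the call was lost without both C arrays (1.28, adjusted p = 0.072). VTCN1, an immune checkpoint protein of trophoblast and amnion, was lower in ORMES-9 at 8.96 ± 0.14 than in rPESC-2 at 10.07 ± 0.17 (−1.11, SE 0.14, limma adjusted p = 8.0e-04). Against fibroblasts 3 of the 23 were higher and 5 lower in ES lines, beside 14.5% higher and 12.9% lower of all genes. VTCN1 averaged 9.41 in ES lines and 3.83 in fibroblasts, and KRT19 averaged 10.37 in ES lines and 4.17 in fibroblasts. KRT8 averaged 9.76 in ES lines and 4.69 in fibroblasts. Here the fibroblast means of VTCN1 and KRT19 were below the control level, and no fold is given. Lower in ES lines were TFPI2 (6.94, against 12.04 in fibroblasts), IGFBP3 (8.02, against 12.71), SLC40A1 (4.26, against 7.02), PLAC8 and FLT1. GABRP, a marker of amnion and trophoblast-like cells, averaged 3.94 to 3.99 in the ES lines and 3.98 in fibroblasts, all below the control level.

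Lists for other fates that use the same factors were also measured. Between ES lines each list had at most 1 gene called in a comparison, beside 1.63% to 2.29% of all genes. Median differences lay between −0.17 and 0.20, except for the BMP targets. Their medians were −0.67 in rPESC-2 and −0.39 in ORMES-9 against ORMES-22, and 0.60 in ORMES-9 against rPESC-2. Of 9 surface ectoderm and neural crest genes, 5 were measured, and GRHL3 was lower in rPESC-2 than in ORMES-22 (−1.21, SE 0.22, limma adjusted p = 0.0078) and higher in ORMES-9 than in rPESC-2 (1.32, SE 0.22, adjusted p = 0.0038). All 9 mesoderm genes were measured, and GATA6 was higher than in ORMES-22 both in rPESC-2 (2.78, SE 0.31, limma adjusted p = 3.8e-04) and in ORMES-9 (2.14, SE 0.31, adjusted p = 0.0015). Of 8 endothelial and blood genes, 6 were measured, and TEK was lower in ORMES-9 at 7.85 than in rPESC-2 at 10.06 and ORMES-22 at 10.15 (limma adjusted p = 8.1e-05 and 4.9e-05). Of the 7 BMP targets, ID4 was lower than in ORMES-22 in rPESC-2 (−1.19, limma adjusted p = 0.025) and in ORMES-9 (−1.02, adjusted p = 0.043). ID4's calls were lost without any of several single arrays, at −0.99 to −1.20 in rPESC-2 and −0.82 to −1.02 in ORMES-9, and all 3 ORMES-22 arrays lay above all rPESC-2 arrays.

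The genes whose levels followed MSX2 most closely were sought over the 9 ES arrays, since no trophoblast lineage gene was called between ES lines and MSX2 had the widest range of line means. Among 12992 other named genes, CCL8 had the highest Pearson correlation with the brightest MSX2 probe set (0.980), followed by DLC1 (0.977) and SIM2 (0.977). The ranges of CCL8 (5.10 to 6.16) and SIM2 (5.63 to 6.08) over these arrays were narrow beside that of MSX2 (7.39 to 10.15). DLC1 read 5.66 to 8.18. Without array C of ORMES-22 and array C of ORMES-9 the correlations over the other 7 arrays were 0.932, 0.943 and 0.905. The 9 arrays come from 3 lines, so these values describe a shared pattern of lines and arrays.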

How the data were processed

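Total RNA of 12 rhesus macaque samples was labelled with biotin and hybridised to 1 Affymetrix array each, per the labels' protocols. The deposited values are log2 expression values that the authors summarised with RMA, per the submitters' processing notes, whose version and probe set definition are not given in the sources used here. The log2 scale was read from the range of values. RMA makes arrays alike in distribution and compresses differences near background. Of 52865 features, 99 controls were left out. The platform annotation gave the gene symbols (24956 probe sets with 1 symbol, 361 with several, 27449 with none), and the symbols of all 21 probe sets of the 10 genes matched a RefSeq gene table of another assembly, used for names only. A gene's probe set with the highest mean over 12 arrays stood for it.

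The test was limma 3.58.1 (R 4.3.3), with lmFit and eBayes on group means of all 12 arrays, which left 8 residual degrees of freedom beside 3.69 prior ones. It was two-sided, with Benjamini-Hochberg adjustment over 52766 probe sets. No covariate was fitted, since the labels give no batch. All probe sets of the 10 genes are named; of other lists, up to 4 called genes a comparison are named, and genes beyond that were chosen after their values were seen. The 10 genes, the lists and the comparisons were chosen with earlier results of these data known. The method was tested on simulated data. Alternatives were a fit of the compared groups alone, the replicate letter as a block, omission of dim probe sets, quantile or median scaling, trended and robust moderation, no minimum difference, each ES line alone against fibroblasts, each array left out, and, added after seeing the data, both C arrays left out. The number of arrays limits the precision.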

Additional observations from a re-analysis of the deposited data

Results flagged for a closer look

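KRT7 was singled out because the parthenogenetic lines lay on opposite sides of ORMES-22. All 3 ORMES-9 arrays (7.36, 7.56 and 7.47) were above the ORMES-22 mean of 7.26, and all 3 rPESC-2 arrays (7.03, 7.12 and 7.14) were below it. The difference of ORMES-9 from rPESC-2 was 0.36 on the log2 scale, with an unadjusted p of 0.003 and an adjusted p of 0.055 in limma, so the difference itself missed the threshold after adjustment. The ORMES-22 arrays, at 7.24, 7.42 and 7.11, overlapped both lines.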

How the results depend on the processing

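Each group has 3 arrays of 1 line, so a line's spread rests on few arrays, and ELF5 and ENDOU were below background, where these arrays cannot show a difference. No direction of a called difference reversed under any alternative run. The number of trophoblast lineage probe sets called was 0 to 4 in rPESC-2 against ORMES-22 with each array left out in turn (4 without ORMES-22 A), 0 to 2 in ORMES-9 against ORMES-22 (2 without ORMES-22 A), 0 in all in ORMES-9 against rPESC-2, and 3 to 4 in ES lines against fibroblasts. With the replicate letter as a block the count was 1 in rPESC-2 against ORMES-22 (MSX2) and unchanged at 0, 0 and 4 in the others; the letters do not pair the samples, since same-letter deviations correlated at −0.31 to 0.26 over 18 pairs and 3 of 12 arrays matched their own letter best. With no minimum difference the count against fibroblasts was 11. With both C arrays of ORMES-22 and ORMES-9 left out it was 5, and 0 between ES lines. Over all probe sets, a fit of the compared groups alone called 332 in place of 656 in rPESC-2 against ORMES-22, omission of ORMES-22 A called 1493 there and 1284 in place of 831 in ORMES-9 against ORMES-22, and no minimum difference called 2536, 3158, 2753 and 31829 in the order of the comparisons above. Among differences of single probe sets, 1647 stayed on their side of the threshold, 58 uncalled ones changed sign, 19 became called and 3 lost their call.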
